A study of Mus musculus with 4 samples.

Results

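The miR-26 family was examined in exosomes, the small vesicles that cells release, from BV2, an immortalized mouse microglial line. Its 2 members listed in the deposited values, mmu-miR-26a-5p and mmu-miR-26b-5p, were taken by name from 603 miRNA names per library. The pair was chosen on earlier results of these same libraries, in which miR-26a-5p had few reads in 1 heated library, so every level given here is a description and no test of the members was made. Cells of the NC (control) group were kept at 37 °C for 2 h, and cells of the HS (heatstroke) group were heated at 42 °C for 2 h and rewarmed at 37 °C for 12 h by the methods, although the study's own results text gives a shorter interval before harvest. All cells carried the label WT, and each group had 2 libraries of exosomal small RNA, called NC 1, NC 2, HS 1 and HS 2. No source used here says whether the replicates came from separate cultures, so the spread between them may be technical. The values come from vesicles of a culture, in which fewer vesicles of a kind and less miRNA per vesicle cannot be told apart.

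A miRNA is cut from a hairpin precursor, is loaded into an Argonaute protein and lowers the output of mRNAs that pair with its seed, the bases near its 5′ end. The miR-26 family is abundant in many differentiated cells and is known to restrain proliferation, with Ezh2, the histone methyltransferase of the Polycomb complex, among its targets. It is also known to repress Il6, a cytokine that activated microglia release. Its hairpins lie inside genes of the CTDSP phosphatases, which act on RNA polymerase II and on the retinoblastoma protein.

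Both mature sequences are shown because the pair differs by so little that the counts depend on telling them apart. They are given 5′ to 3′ from RefSeq on GRCm38.p6, with the seed (bases 2 to 8) in capitals.
mmu-miR-26a-5p: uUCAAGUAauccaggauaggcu
mmu-miR-26b-5p: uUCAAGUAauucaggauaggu
The seed is the same in both. Over the 21 bases that can be compared from the 5′ end, 19 were identical. The differences were C11U and C21U (miR-26a-5p base first, position from its 5′ end, then miR-26b-5p base), and miR-26a-5p is 22 bases long and miR-26b-5p 21. Among 1679 mature names in the reference table, 2 carry this seed, and these are the members. Of the 603 listed names 497 matched that table, and no other listed name that matched shared bases 2 to 7. The nearest other listed sequence, that of miR-339-5p, differed at 7 of the first 18 bases. A read with a sequencing error at position 11, or one trimmed at its 3′ end and mapped with mismatches, could be counted for the wrong member, and how many mismatches were allowed is not given in the sources used here. No other listed name had the same reads as a member in every library.

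MiR-26a-5p comes from a pair of hairpins and miR-26b-5p from a single one, and the hairpins are shown because the 5p arm alone does not tell the miR-26a loci apart. The capitals mark the 5p arm.
Mir26a-1: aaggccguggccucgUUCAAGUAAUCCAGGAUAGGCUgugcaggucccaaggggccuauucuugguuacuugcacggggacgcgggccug
Mir26a-2: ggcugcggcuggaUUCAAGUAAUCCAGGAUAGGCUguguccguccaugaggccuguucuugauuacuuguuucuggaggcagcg
Mir26b: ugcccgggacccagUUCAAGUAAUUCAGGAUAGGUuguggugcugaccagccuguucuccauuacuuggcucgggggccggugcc
All lie on the plus strand of GRCm38, in protein-coding genes of the same strand in GENCODE M21. Mir26a-1 (chr9:119031796-119031885) lies in an intron of Ctdspl, and Mir26b (chr1:74394310-74394394) in an intron of Ctdsp1. Mir26a-2 (chr10:126995530-126995613) lies within Ctdsp2, where 2 annotated exon entries overlap it, each by at most 1 base. The 3 opposite arms, miR-26a-1-3p, miR-26a-2-3p and miR-26b-3p, are the parts that differ between loci, and 0 of the 3 are among the listed names. Of 408 listed names whose hairpin has another annotated arm, 232 (56.9%) had that arm listed too. The share of miR-26a-5p made by each locus therefore could not be taken from these values.

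The listed reads totalled 96516 and 121503 in NC 1 and NC 2, 42091 in HS 1 and 113966 in HS 2. HS 1 stood apart: 228 names had a read there against 420 to 444 in the other libraries, and its Spearman correlations with them, across the 376 miRNAs with at least 10 reads in all, were 0.60 to 0.68, against 0.79 to 0.81 among the others. The differences of the members are therefore given with and without HS 1. The number of miRNAs below both NC libraries and the profile distances use all 4 libraries. The deposited values were reads divided by a size factor per library, called normalized counts here. A count of 0 would have allowed up to 3 reads, or 0.00247% to 0.00713% of a library, and both members were above this limit in all 4 libraries. BV2 is a microglial line, and all 6 of the myeloid marker miRNAs were read, though not in every library, led by miR-21a-5p and miR-146a-5p. In NC 1, NC 2, HS 1 and HS 2, miR-223-3p had 5, 2, 3 and 0 reads and miR-142a-3p had 17, 3, 0 and 3.

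MiR-26a-5p was one of the more abundant miRNAs of the control exosomes and was lower in both HS libraries than in both NC libraries. It had 3378 reads in NC 1 and 2006 in NC 2, and 72 in HS 1 and 1336 in HS 2. In normalized counts these were 2824 and 1360 in the NC libraries and 174 and 886 in the HS libraries. NC 1 was the highest, HS 1 was the lowest by far, and the groups did not overlap. By reads it ranked 6 and 19 among the names of the NC libraries, and 51 and 26 in HS 1 and HS 2. Its share of listed reads was 3.50% in NC 1 (95% Wilson interval 3.39% to 3.62%), 1.65% in NC 2 (1.58% to 1.72%), 0.171% in HS 1 (0.136% to 0.215%) and 1.17% in HS 2 (1.11% to 1.24%). No 2 of these intervals overlapped, so each library differed from the next in order by more than counting error, the NC libraries from each other included. The intervals account for counting error alone, because reads copied by PCR are not separate molecules.

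The group means of miR-26a-5p were 2092 ± 1035 normalized counts (SD, n = 2) in NC and 530.3 ± 504 (SD, n = 2) in HS, which is a 3.94-fold difference. On the scale of log2(normalized count + 1) the HS mean was lower by a difference of -2.31 (standard error 1.28). Against the NC mean, HS 1 was 12.0-fold lower and HS 2 was 2.36-fold lower. NC 1 was itself 2.08-fold above NC 2, and HS 2 was 1.53-fold below NC 2. HS 2 thus lay closer to NC 2 than NC 1 did. Without HS 1 the log2 difference was -1.14, and without NC 1 it was -1.79.

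MiR-26b-5p, the scarcer member, was level across the NC libraries and lower in the HS libraries. It had 282 and 344 reads in NC 1 and NC 2, 14 reads in HS 1 and 231 in HS 2. The normalized counts were 236 and 233 in NC, 33.9 in HS 1 and 153 in HS 2, again with no overlap of the groups. Its rank by reads was 52 and 48 in the NC libraries, 112 in HS 1 and 63 in HS 2. The shares of listed reads were 0.292% (95% Wilson interval 0.260% to 0.328%) and 0.283% (0.255% to 0.315%) in NC 1 and NC 2, so these libraries did not differ beyond counting error. The shares were 0.0333% (0.0198% to 0.0558%) in HS 1 and 0.203% (0.178% to 0.231%) in HS 2, each with an interval below both of those.

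The NC mean of miR-26b-5p was 234 ± 1.81 normalized counts (SD, n = 2) and its HS mean 93.6 ± 84.4 (SD, n = 2), a 2.51-fold difference. The log2 difference of HS from NC was -1.68 (standard error 1.07). HS 1 was 6.93-fold and HS 2 was 1.53-fold below the NC mean. The spread of this member lay almost wholly between the HS libraries, which were 4.53-fold apart, while the NC libraries were 1.01-fold apart. Without HS 1 the log2 difference was -0.61.

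**Figure D1:**
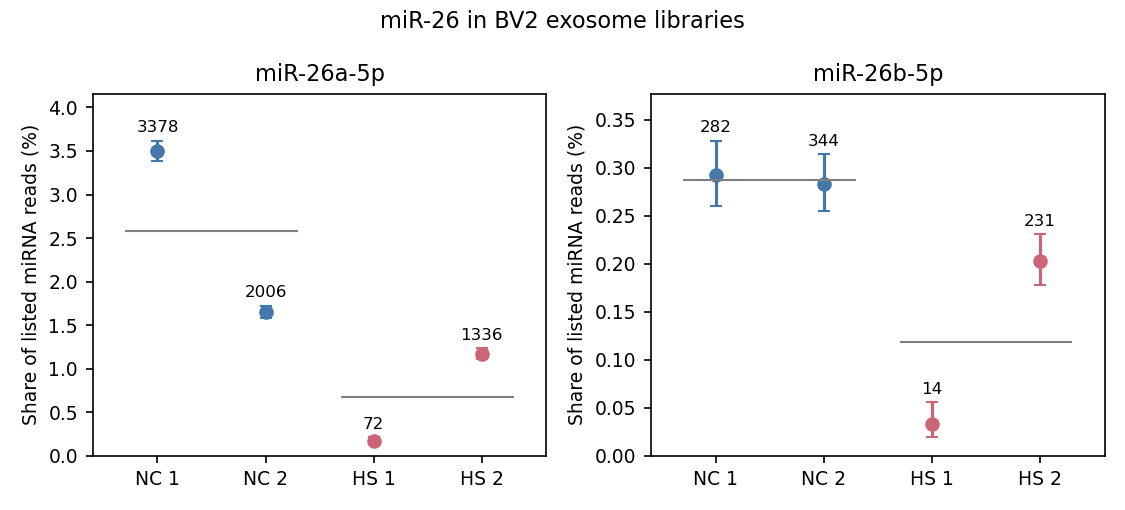
Share of listed miRNA reads (%) of miR-26a-5p (left) and miR-26b-5p (right) in each library (NC blue, HS red); bars are 95% Wilson intervals, numbers above the points are reads and grey lines are group means. For miR-26a-5p the points run from 3.50% in NC 1 down to 0.171% in HS 1, and for miR-26b-5p the NC points (0.292% and 0.283%) have overlapping intervals.

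Summed over both members, miR-26 took 3.79% and 1.93% of the listed reads in NC 1 and NC 2, 0.204% in HS 1 and 1.37% in HS 2. The share was 2.86% ± 1.31 (SD, n = 2) in NC and 0.790% ± 0.828 (SD, n = 2) in HS, or 3.63-fold higher in NC. The NC mean was 2.08-fold above HS 2 alone and 14.0-fold above HS 1 alone. HS 1 was the shallowest library. At the NC mean its size factor would have given 865 reads of miR-26a-5p, where 72 were counted, and 97.0 reads of miR-26b-5p, where 14 were counted. At the level of HS 2 these would have been 367 and 63.4 reads.

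A ratio of the members within a library does not depend on the scaling of that library. Each read stands for 1 whole miRNA, so no division by length is needed, but adapters can join the pair with unequal efficiency, so its absolute value is not a ratio of molecules. The ratio of miR-26a-5p to miR-26b-5p reads was 12.0 in NC 1 (95% interval 10.6 to 13.6, from the exact Clopper-Pearson interval of a share), 5.83 in NC 2 (5.20 to 6.56), 5.14 in HS 1 (2.88 to 9.87) and 5.78 in HS 2 (5.03 to 6.68). NC 1 was the library that stood apart, above the other 3, whose ratios lay between 5.14 and 5.83 with overlapping intervals. MiR-26a-5p made up 92.3% of the miR-26 reads in NC 1 and 83.7% to 85.4% in the other libraries. The HS libraries, whose levels were furthest apart, had ratios that differed 1.12-fold, against 2.05-fold between the NC libraries. The mean ratio was 8.91 ± 4.35 (SD, n = 2) in NC and 5.46 ± 0.453 (SD, n = 2) in HS. The log2 ratio differed by -0.62 between the groups, which was -0.10 without NC 1 and -1.14 without NC 2. Without HS 1 it was -0.53 and without HS 2 it was -0.70. HS 2 was 1.53-fold below NC 2 for miR-26a-5p and 1.52-fold for miR-26b-5p.

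**Figure D2:**
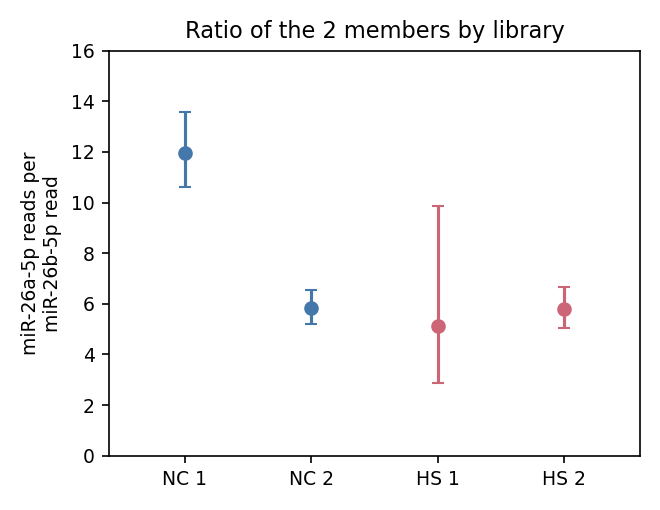
Reads of miR-26a-5p per read of miR-26b-5p (linear axis) in each library (NC blue, HS red), with 95% exact intervals that cover counting error only. NC 1 lies at 12.0 and the other libraries between 5.14 and 5.83, with the widest interval in HS 1, where 14 reads of miR-26b-5p were counted.

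Of the 376 miRNAs with at least 10 reads, 122 had both HS libraries below both NC libraries (32.4%), and both members were among them. A position below both controls was thus common in these libraries, and since the members were chosen on this contrast nothing is read from their being among the 122. It held for both members under each scaling tried. Over the 376 miRNAs it held for 107 when scaled by listed reads and for 98 with TMM scaling. The lower NC library exceeded the higher HS library of miR-26a-5p by 1.53-fold as deposited and by 1.25-fold with TMM scaling. For miR-26b-5p these values were 1.52-fold and 1.24-fold. In limma over the 376 miRNAs, 0 (0%) passed an adjusted p of 0.05, the smallest being 0.516, and 31 had an unadjusted p under 0.05. In edgeR (quasi-likelihood) and DESeq2 (Wald), run on recovered reads, 0 passed after adjustment, and 32 and 29 had an unadjusted p under 0.05. The median log2 difference of all tested miRNAs was -0.65, so relative to that median miR-26a-5p was at -1.66 and miR-26b-5p at -1.03. Without HS 1 the median was -0.17 and the members lay at -0.97 and -0.44 relative to it, and without HS 2 it was -1.38, with the members at -2.11 and -1.38.

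Set among the 157 miRNAs with at least 100 reads, the members were low in both HS libraries without being at the end of the range. Counted from the lowest log2 difference from the NC mean, miR-26a-5p ranked 21 of 157 in HS 1 (-3.48) and 18 of 157 in HS 2 (-1.14). MiR-26b-5p ranked 29 of 157 in HS 1 (-2.76) and 36 of 157 in HS 2 (-0.61). The medians of the 157 were -0.34 in HS 1 and -0.12 in HS 2. Between the NC libraries miR-26a-5p ranked 23 of 157 from the highest difference of replicate 1 over replicate 2 (1.05), and miR-26b-5p ranked 76 (0.02).

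**Figure D3:**
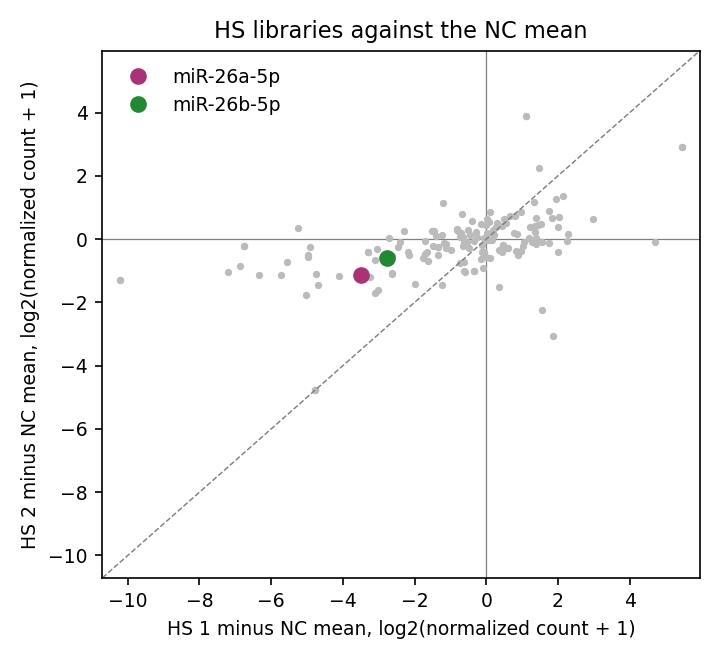
Difference of HS 1 (x axis) and HS 2 (y axis) from the NC mean in log2(normalized count + 1), for the 157 miRNAs with at least 100 reads; grey points are the other miRNAs, the dashed line marks equal differences, and both axes share the NC mean. MiR-26a-5p (-3.48, -1.14) and miR-26b-5p (-2.76, -0.61) lie to the lower left, above the dashed line, lower in HS 1 than in HS 2.

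MiRNAs of like abundance in the control exosomes gave other values. Ordered by the mean of the NC libraries, miR-26a-5p was number 10 of all names. Directly above it were miR-24-3p, at 2466 and 2116 normalized counts in NC and 1465 and 2398 in HS 1 and HS 2, and let-7b-5p, at 1678 and 2547 in NC and 5211 and 2705 in HS. Directly below it were let-7f-5p, at 2248 and 1404 in NC and 762 and 650 in HS, and miR-222-3p, at 1539 and 2100 in NC and 2067 and 2019 in HS. Of these, let-7f-5p also lay lower in both HS libraries, and there HS 2 was the lower one. MiR-26b-5p was number 50, between miR-7a-5p and miR-10b-5p above it and miR-361-3p and miR-103-3p below it. Their log2 differences of HS from NC were 0.14, -2.31, 0.57 and -1.18 in that order. MiR-10b-5p had 479 normalized counts in NC 1 and 22.4 in NC 2, so its lower HS mean rested on 1 NC library.

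The miRNAs whose profiles were most like those of the members were found by the distance between log2(normalized count + 1) profiles over the 4 libraries, each centred on its own mean, among 155 other miRNAs with at least 100 reads. The nearest to miR-26a-5p was miR-148a-3p (distance 0.24), with 916 and 453 normalized counts in NC 1 and NC 2, 67.7 in HS 1 and 283 in HS 2. NC 1 was about as far above NC 2 as it was for miR-26a-5p. The next were miR-20a-5p (0.78), miR-30e-5p (0.82), miR-125a-5p (0.86) and miR-30a-5p (0.99), and miR-26b-5p itself lay at 0.98. The nearest to miR-26b-5p were miR-30e-5p (0.42), miR-100-5p (0.45), miR-101b-3p (0.45), miR-99b-5p (0.49) and miR-125a-5p (0.56), and 11 of the 155 were closer to it than miR-26a-5p. MiR-20a-5p, miR-30e-5p and miR-101b-3p had 2 reads each in HS 1, so their distances depend on counts at or under the limit of 3 reads.

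**Figure D4:**
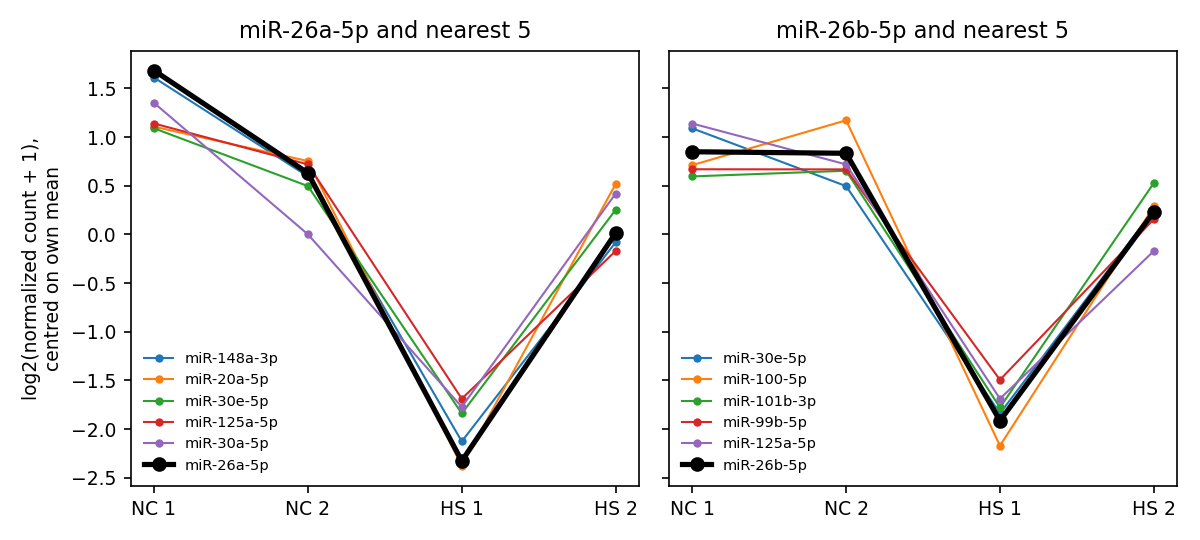
Profiles in log2(normalized count + 1), each centred on its own mean, over the 4 libraries for miR-26a-5p (left, black) and miR-26b-5p (right, black) with the 5 miRNAs nearest to each; lines only link the points of 1 miRNA. All profiles are lowest in HS 1, and the black line of miR-26a-5p is highest in NC 1 while that of miR-26b-5p is level across the NC libraries.

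Other miRNAs known to act on Ezh2 were described from a list chosen by name. Of that list, 3 of the 5 names were listed (miR-101a-3p, miR-101b-3p and miR-214-3p), and all 3 had both HS libraries below both NC libraries, with a median log2 difference of -0.81. MiR-101a-3p had 76.1 and 48.1 normalized counts in NC 1 and NC 2, 38.7 in HS 1 and 29.9 in HS 2. MiR-214-3p had 3, 11, 1 and 3 reads in that order of libraries, at the limit of detection in 3 of them. The background over all 376 tested miRNAs was 122 below and 47 above, with a median of -0.65.

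Marker miRNAs of cell types were described from lists chosen by name too. As background, 122 of the 376 tested miRNAs (32.4%) lay below both NC libraries and 47 above. In HS 1, 228 of all 603 names had a read. All 8 of the stromal and endothelial names, of which miR-199a-3p and miR-199b-3p share their reads, were tested. All 8 had both HS libraries below both NC libraries, though miR-214-3p did so on only 3, 11, 1 and 3 reads in NC 1, NC 2, HS 1 and HS 2. Their median log2 difference was -3.18. That median was -5.24 for HS 1 alone and -1.14 for HS 2 alone. Together, with shared reads taken once, they took 4.09% and 1.72% of the listed reads in NC 1 and NC 2, 0.0214% in HS 1 and 1.23% in HS 2, and miR-199a-3p, miR-199b-3p, miR-145a-5p and miR-126a-5p were at 0 reads in HS 1. The libraries stood in the same order by the summed share of this list as by miR-26a-5p. They did so by the summed share of the epithelial list too, so this order was not seen for the stromal and endothelial list alone. Of the epithelial names taken singly, only miR-200a-3p and miR-200c-3p had this order. The epithelial list (7 of 7 names listed) took 0.476% of NC 1, 0.230% of NC 2, 0.00238% of HS 1 and 0.161% of HS 2. In HS 1, 6 of its 7 names were at 0 reads, with 1 read of miR-200a-3p. Of its 6 tested names 2 were below both NC libraries and 0 above. The myeloid list took 2.96% to 6.76% in NC and 1.68% to 3.80% in HS, and 3 of its 6 names were below both NC libraries. Among these was miR-142a-3p, with 3 reads in NC 2 and 3 in HS 2. The red cell and liver list took 0.0953% to 0.234% in NC and 0.247% to 0.325% in HS, and of its 4 tested names 0 were below and 1 was above both NC libraries. Of the neuronal list 3 of 5 names were listed, and they took 2.73% to 3.69% in NC and 2.80% to 3.69% in HS, mostly as miR-128-3p, which had 2119 and 2906 normalized counts in NC and 3734 and 2044 in HS 1 and HS 2. The other two, miR-9-5p (80.2 and 128 in NC, 21.8 and 75.6 in HS) and miR-9-3p (0 reads in both HS libraries), were below both NC libraries. Whether any source other than BV2 cells gave reads of these lists, or of miR-26, was not tested.

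The members are poor in G and C beside most of the well-read miRNAs. Their GC content was 40.9% for miR-26a-5p and 33.3% for miR-26b-5p, and the median was 47.8% over the 131 of 157 miRNAs with at least 100 reads that had a sequence (83.4%). Of these, 39 had a GC content at or below that of miR-26a-5p and 8 at or below that of miR-26b-5p. Across the 131 miRNAs, which are not independent replicates, GC content and the log2 difference from the NC mean had a Spearman correlation of 0.44 in HS 1 and 0.46 in HS 2, and these share the NC mean. For NC 1 over NC 2 the correlation was -0.24. The part of base composition in the miR-26 values was not tested. The motif GGAG, searched on the miRNA strand because it is known to be bound by a factor that loads miRNAs into exosomes, is in neither member and in 64 of the 497 matched sequences (12.9%).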

How the data were processed

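Small RNA from BV2 exosomes was sequenced in 4 libraries. Before deposit, adapters and reads that were short or of poor quality were removed by the authors, who mapped with bowtie. The signal deposited by the authors carries the heading RPKM, but 100% of the values above 0 were whole multiples (within 0.001) of the smallest value of the library, whatever the miRNA, so reads were recovered by division. The size factors so found were 1.20, 1.48, 0.414 and 1.51 for NC 1, NC 2, HS 1 and HS 2. Among names with at least 10 reads, 19 repeat the reads of another name, so 0.347% (HS 1) to 2.78% (NC 1) of the listed reads enter the totals again. The genome build and miRNA release behind the counts are not given in the sources used here.

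The 376 miRNAs with at least 10 reads were fitted with limma 3.58.1 (R 4.3.3, no trend, no replicate term) on log2(normalized count + 1), which understates differences of scarce miRNAs, with Benjamini-Hochberg adjustment. edgeR 4.0.16 and DESeq2 1.42.0 on recovered reads were alternatives, as were other scalings, pseudocounts of 0.5 and 5, no filter, and leaving out each library. The fits were run on simulated data with large planted differences as a check of the code only. That run does not show how they behave on libraries as unlike as these. With 2 libraries against 2, an exact two-sided permutation test cannot go below p = 0.333. Named miRNAs were the members, their opposite arms, seed sharers, the 5 nearest profiles, the 2 next above and below in NC level, and list members. One of the planned lists is not reported here. The members and lists were chosen with earlier results of these data known. Python 3.11.15 was used for tables.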

Additional observations from a re-analysis of the deposited data

How the results depend on the processing

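The members were chosen on this contrast and their groups do not overlap, so leaving out a library or adding the block cannot turn their direction, and no stability is read from it. Leaving out 1 library gave log2 differences from -3.48 to -1.14 for miR-26a-5p and from -2.76 to -0.61 for miR-26b-5p, with the smaller values without HS 1. The smallest difference from another tool was that of edgeR, -1.79 and -1.13. The summed share differed by -2.07 percentage points, or from -3.002 to -1.14 with 1 library left out. Scaling by the upper quartile moved the median of all tested miRNAs from -0.65 to -0.38, and the members relative to it were at -1.57 and -0.94. In edgeR the median was -0.33, with the members at -1.46 and -0.80 relative to it. A pseudocount of 5 gave a median of -0.33 too, with the members at -1.97 and -1.28. The number of miRNAs with more than a 2-fold difference and an unadjusted p under 0.05 was 31 in limma, 16 with a pseudocount of 5, and 26 to 113 with 1 library left out (113 without HS 2). With the replicate number as a block it was 19 and the members' differences stayed at -2.31 and -1.68. Deviations of same-numbered libraries had a correlation of -0.10, and the labels give no sign that a number marks a shared batch. The number of miRNAs with both HS libraries under both NC libraries was 50 of the 157 with at least 100 reads. The number with an adjusted p under 0.05 was 0 in each alternative run. Depth limits miR-26b-5p in HS 1 most, with 14 reads.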
